A study of Homo sapiens with 24 samples.

Results

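The genes described here are the 6 classic transcription factors of the epithelial to mesenchymal transition (EMT), SNAI1, SNAI2, ZEB1, ZEB2, TWIST1 and TWIST2, and a pair of mesenchymal marker genes, CDH2 and VIM. They were picked by symbol and make up 8 of the 18154 genes that appear in any of the 3 tables of the series. All 8 were in the knockdown and inhibitor tables. In the MB-3 experiment 7 of them were analysed, and SNAI1 was not analysed there.

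The samples were 24 RNA sequencing libraries of BT549, a wild type human breast cancer line that the labels call triple negative (TNBC), in 8 groups of 3 that the titles number as biological replicates. In the knockdown experiment, siMYC cells received a SMARTpool of small interfering RNAs against the oncogene MYC for 72 h, and siCtl cells a control, for an unstated time. In the inhibitor experiment, cells received KJ-PYR-9 and DEX together (KJ-PYR-9 + DEX), KJ-PYR-9 alone, DEX alone, or vehicle (VEH). KJ-PYR-9 is a small molecule that blocks MYC, and it was dissolved in DMSO and used at 40 µM for 3 h, while the dose and time of DEX are not given. In the MB-3 experiment, cells received 100 µM MB-3, an inhibitor of the histone acetyltransferase GCN5, for 3 h (MB3), or a vehicle numbered separately from the other (VEH #2). The labels of 1 library disagree, since MB3 1 is titled MED3 but its listed treatment is MB3, which was followed here. A single cell line at a single time per treatment was studied, and whether the replicates came from separate cultures is not stated beyond the titles.

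In EMT, epithelial cells lose their junctions and gain a spindle shape and motility. SNAI1 and SNAI2 are zinc finger repressors, ZEB1 and ZEB2 are zinc finger and homeodomain repressors, and TWIST1 and TWIST2 are basic helix-loop-helix factors. The SNAIL and ZEB proteins bind E-box sequences of the form CACCTG in epithelial promoters, that of E-cadherin (CDH1) among them. CDH2 encodes N-cadherin, the adhesion protein that replaces E-cadherin in mesenchymal cells, and VIM encodes vimentin, their main intermediate filament. SNAI1 transcripts and protein are short-lived, and the ZEB factors and the miR-200 family repress each other. BT549 is known as a mesenchymal-like line of the basal B group.

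Promoter sequence bears on these genes because the SNAIL, ZEB and TWIST factors and MYC all bind E-boxes. RefSeq windows on GRCh38.p14, from 250 bases before a start to 50 after it, were at hand for 5 of the 8 genes, namely ZEB1, ZEB2, TWIST2, CDH2 and VIM, with 7 windows for ZEB1 and 2 for CDH2. Each window was searched on both strands for 8 motifs. The letters were CACGTG (the E-box that MYC binds), CACCTG (that of SNAIL and ZEB proteins, CAGGTG on the other strand), TGANTCA (AP-1), TGACGTCA (CREB), ACANNNTGT (steroid receptors), GGGCGG (SP1), TATAAA and the CArG box (SRF). CACCTG was found in ZEB1 windows alone, against 20.6% of all 35116 windows. TGANTCA was found in a CDH2 window, as TGAATCA at position -102 from the start, against 7.71% of all windows. CACGTG (7.26% of all windows), TGACGTCA (1.85%), ACANNNTGT (5.37%) and the CArG box (1.29%) were in no window of these 5 genes. GGGCGG (45.0% of all windows) was in windows of 4 of the 5, all but ZEB2, and TATAAA (11.5%) in a CDH2 window at position -32. A gene was counted if any of its windows matched, while the shares count single windows. With 7 windows for ZEB1 and 2 for CDH2, the counts and shares are not directly comparable. Matches of different motifs did not overlap.

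The stretches below show 2 of the 4 CACCTG or CAGGTG matches in ZEB1, the bases just before the start of ZEB2, which lie in an exon of its antisense transcript ZEB2-AS1, and the regions upstream of TWIST2 and VIM, which differ in GGGCGG matches. The other matches in ZEB1 lie at position -57 of another window and at position 34. All are RefSeq sequence, 5′ to 3′ on the strand of the gene. In ZEB1 (plus strand, chr10:31318966-31318995 and chr10:31319119-31319148) capitals mark CACCTG at position -242 and CAGGTG at position -85. In ZEB2 (minus strand, chr2:144520120-144520149, the 30 bases before the start) capitals mark bases inside an exon of ZEB2-AS1 in GENCODE v29, which are all 30. In TWIST2 (plus strand, chr2:238847835-238848031) and VIM (plus strand, chr10:17227991-17228240) capitals mark GGGCGG or its reverse complement, which matched 4 times and 1 time.
ZEB1 at -242: ccccaccaCACCTGaggaaaacttttccct
ZEB1 at -85: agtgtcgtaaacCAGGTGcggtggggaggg
ZEB2: TTGTGTTTCCTGGAGTGGCCGAAAGAGATC
TWIST2: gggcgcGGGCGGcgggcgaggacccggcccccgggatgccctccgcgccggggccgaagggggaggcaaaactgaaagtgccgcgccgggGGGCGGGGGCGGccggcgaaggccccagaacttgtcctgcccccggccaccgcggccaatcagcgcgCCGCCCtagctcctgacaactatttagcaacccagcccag
VIM: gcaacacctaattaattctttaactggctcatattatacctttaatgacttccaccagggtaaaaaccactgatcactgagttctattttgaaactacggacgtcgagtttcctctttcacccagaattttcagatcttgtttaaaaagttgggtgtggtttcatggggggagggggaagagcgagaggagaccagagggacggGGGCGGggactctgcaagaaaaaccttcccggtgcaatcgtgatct

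Recovered depth per library, in mega-reads (M), spanned 18.77 to 24.15 M for siMYC and siCtl, 5.582 to 30.76 M for the 4 inhibitor groups, and 8.306 to 19.96 M for MB3 and VEH #2. Features without a gene symbol, which took no part in any test, took up 8.722% of reads in library KJ-PYR-9 + DEX 3 and 26.04% in library DEX 1, and between 1.618% and 1.861% in the VEH libraries. MYC read 1655, 1789 and 1710.3 in siMYC and 2313, 2269 and 2138 in siCtl, with a log2 fold change of -0.38 (SE 0.11) whose limma adjusted p of 0.0587 missed the threshold (0.0321 with trended and robust variance). All 6 markers of mesenchymal-like basal B lines (VIM, CD44, CAV1, CAV2, MSN and AXL) lay above at least 85.1% of genes in each control group. Of the receptors that define triple negative cells, ESR1 was not analysed in any table and PGR averaged 0.127 in VEH, but ERBB2 averaged 836 in VEH, above 82.1% of genes, so the transcript of ERBB2 was not near 0. Among luminal and epithelial markers, CDH1 averaged 377 ± 131 in siMYC and 90.0 ± 25.7 in siCtl, and the 4 groups of the inhibitor experiment averaged between 44.4 and 53.2. The summed level of the 5 luminal markers analysed was 718 to 1108 in siMYC and 361 to 421 in siCtl, and it was 132 to 269 in KJ-PYR-9 + DEX, 255 to 379 in KJ-PYR-9, 146 to 265 in DEX and 89.7 to 192 in VEH. The 3 leukocyte markers summed to 224 to 233 in siMYC and 253 to 297 in siCtl, and to 207 to 326 in KJ-PYR-9 + DEX, 249 to 321 in KJ-PYR-9, 88.5 to 119 in DEX and 117 to 147 in VEH, mostly from CORO1A. TEK, the 1 endothelial marker of 4 analysed outside the MB-3 experiment, read 48.9 to 93.6 in siMYC and 17.8 to 30.5 in siCtl, and the 4 fibroblast markers summed to 184 to 214 in siMYC and 69.4 to 119 in siCtl. In the inhibitor experiment TEK read between 7.86 and 26.4, and the fibroblast sum was 116 to 189 in KJ-PYR-9 + DEX, 125 to 189 in KJ-PYR-9, 204 to 293 in DEX and 132 to 222 in VEH. PTPRC, the defining leukocyte gene, averaged 6.39 in VEH, and CD3E was not analysed. The part of these markers in the results below was not tested.

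Normalized read counts grow with transcript length, so levels were compared between genes per kilobase of the principal transcript. On that scale VIM was the most abundant of the 8 in every group, at 4941 ± 392 per kb in VEH (mean ± SD, n = 3 here and throughout). In VEH it was followed by TWIST1 (685 ± 24.4 per kb), CDH2 (532 ± 4.89), TWIST2 (266 ± 19.0), SNAI2 (217 ± 47.4), ZEB1 (176 ± 15.1), ZEB2 (67.7 ± 6.60) and SNAI1 (22.3 ± 13.2). TWIST2 and SNAI2, and SNAI2 and ZEB1, overlapped in their ranges of mean ± SD, and the other neighbours did not. In siCtl the order of the upper 3 was the same, ZEB1 (375 ± 26.4 per kb) and TWIST2 (343 ± 9.97) lay within their spread, and SNAI2, ZEB2 and SNAI1 followed. In VEH #2, CDH2 (927 ± 37.1 per kb) and TWIST1 (826 ± 93.7) lay within their spread and SNAI2 (553 ± 117) came next. Per kb of all annotated exons together, TWIST1 (2373) stood above VIM (2020.2) in KJ-PYR-9 + DEX and ZEB2 (34.3) below SNAI1 (72.9) in KJ-PYR-9, so these places in the order depend on the length used. Levels per kb were not compared across experiments, since the 3 tables were normalized separately.

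**Figure D1:**
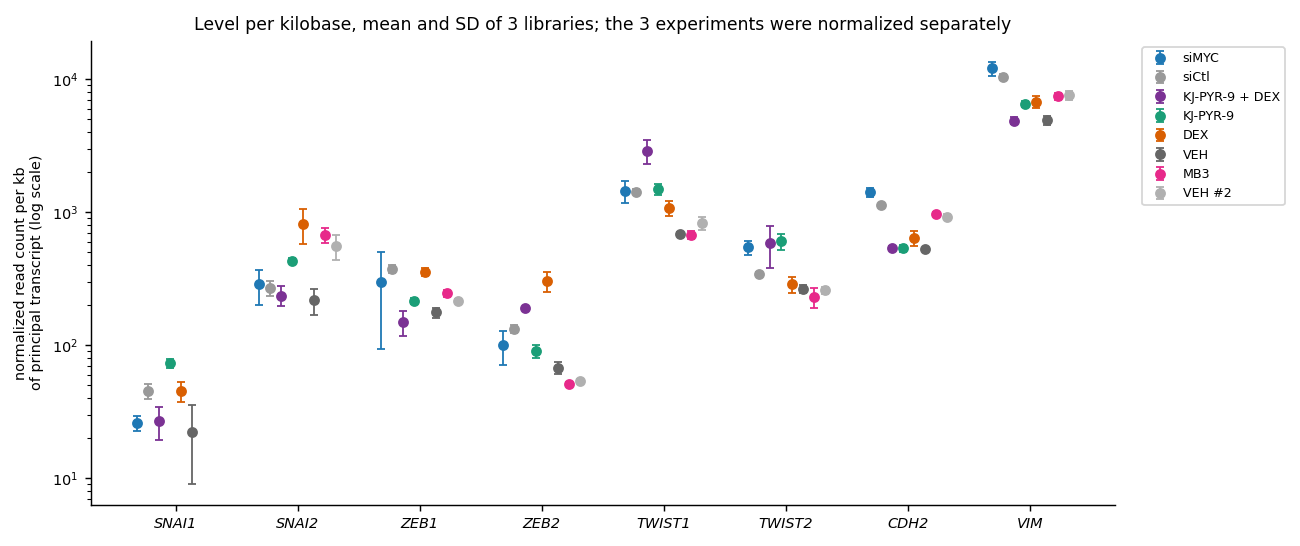
Level of each gene per kilobase of its principal transcript on a log axis, as the mean (point) and SD (bar) of 3 libraries in each of 8 groups; SNAI1 was not analysed in the MB-3 experiment. VIM lies highest and SNAI1 lowest in every group where both were analysed, and TWIST1, SNAI2 and ZEB2 spread the most across the inhibitor groups.

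In the inhibitor experiment neither drug alone lowered any of the 6 EMT factors. They moved in both directions when KJ-PYR-9 was added to DEX. KJ-PYR-9 alone raised SNAI1 3.55-fold, TWIST2 2.26-fold, TWIST1 2.18-fold, SNAI2 2.02-fold and ZEB2 1.33-fold. DEX alone raised ZEB2 4.46-fold, SNAI2 3.73-fold, SNAI1 2.19-fold, ZEB1 2.01-fold and TWIST1 1.56-fold. The calls of ZEB2 with KJ-PYR-9 and of SNAI1 and TWIST1 with DEX were lost without certain single libraries. When KJ-PYR-9 was added to DEX, SNAI2 and ZEB1 fell against DEX, to near their VEH levels, while TWIST1 rose above its level in any other group. CDH2 passed no test in these comparisons in the fit of all 12 libraries on the deposited scale. KJ-PYR-9 raised 6 of the 8 genes and lowered none (25.4% of the 13616 genes tested were higher and 17.5% lower, 42.9% in all). DEX raised 6 and lowered none (9.50% of genes higher and 8.02% lower, 17.5% in all). KJ-PYR-9 + DEX against DEX gave 2 higher and 4 lower (33.6% of genes higher and 35.1% lower, 68.7% in all), so the members' count there was close to the background. Over the 8 genes the median log2 fold change was 0.71 for KJ-PYR-9, 0.83 for DEX and -0.56 for KJ-PYR-9 + DEX against DEX, and over all tested genes it was 0.06, 0.02 and 0.00074. With trends on GC content and transcript length removed, the members' medians were 0.81, 0.73 and -0.0075, so the negative median of the last comparison did not remain. The first 2 comparisons share the VEH libraries. Of the calls over all genes, 59.2% were higher for KJ-PYR-9, against 49.4% with TMM rescaling, 47.6% with quantile scaling and 48.2% with edgeR, and 54.2% for DEX, against 40.1% with quantile scaling. In these bulk samples fewer cells that express a gene and less RNA per cell cannot be told apart.

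**Figure D2:**
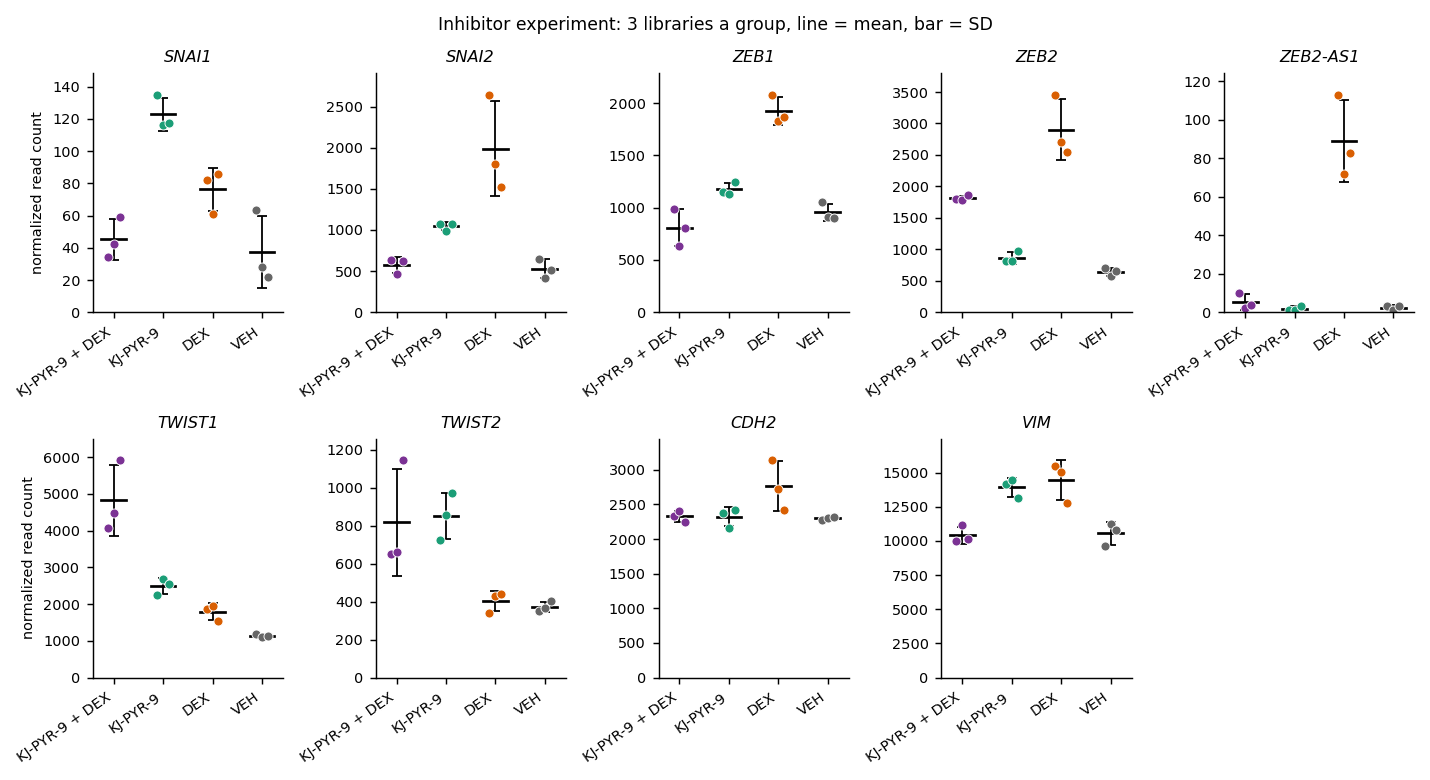
Normalized read counts of the 8 genes and of ZEB2-AS1 in the inhibitor experiment, 1 point per library, with the mean (line) and SD (bar) of 3 libraries in each group. SNAI1 is highest in KJ-PYR-9, SNAI2, ZEB1, ZEB2 and ZEB2-AS1 are highest in DEX, and TWIST1 is highest in KJ-PYR-9 + DEX.

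SNAI1 (chromosome 20, 49982980 to 49988886, plus strand) is the short-lived repressor of E-cadherin. It read 34.1, 42.6 and 59.0 in KJ-PYR-9 + DEX, 135, 116 and 118 in KJ-PYR-9, 82.4, 61.1 and 85.6 in DEX, and 63.2, 27.9 and 21.9 in VEH. All KJ-PYR-9 libraries stood above all others, and VEH 1 stood above 1 DEX library. KJ-PYR-9 against VEH gave a log2 fold change of 1.83 (SE 0.33, limma adjusted p = 0.00287), larger than 99.0% of genes. DEX against VEH gave 1.13 (SE 0.33, limma adjusted p = 0.0398). That call was lost without VEH 2 (0.116), VEH 3 (0.142), DEX 1 (0.128), DEX 2 (0.0609), DEX 3 (0.0661) or any of the 3 KJ-PYR-9 libraries, and its adjusted p ranged over 0.00468 to 0.142 across 25 alternatives. Adding KJ-PYR-9 to DEX gave -0.76 (SE 0.33, limma adjusted p = 0.0604), which missed the threshold. It passed without VEH 1 (adjusted p = 0.00981), VEH 3 (0.039) or KJ-PYR-9 + DEX 3 (0.0376), and with the trends of fold change on GC content and transcript length taken out it was -1.45 (adjusted p = 0.0111), in a range of 0.00891 to 0.182 over the alternatives.

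SNAI2 (chromosome 8, 48917598 to 48921429, minus strand), which encodes the repressor SLUG, read 632, 459.6 and 629 in KJ-PYR-9 + DEX, 1077, 993 and 1079 in KJ-PYR-9, 2642, 1803 and 1524 in DEX, and 647, 417 and 516 in VEH. DEX libraries lay above KJ-PYR-9 libraries, and these above all others, while KJ-PYR-9 + DEX overlapped VEH. SNAI2 rose with KJ-PYR-9 by 1.02 (SE 0.22, limma adjusted p = 0.00595) and with DEX by 1.90 (SE 0.22, limma adjusted p = 0.000446), both on the log2 scale and both above at least 92.7% of genes. It fell with KJ-PYR-9 + DEX against DEX, with a log2 fold change of -1.77 (SE 0.22, limma adjusted p = 0.000162), lower than all but 3.94% of genes. Each of these 3 calls held in all 25 alternatives, although the last was -0.89 (adjusted p = 0.0166) with the trends of GC content and length taken out.

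ZEB1 (chromosome 10, 31318417 to 31529804, plus strand), a repressor in a feedback loop with miR-200, read 989, 634 and 804 in KJ-PYR-9 + DEX, 1153, 1129 and 1241 in KJ-PYR-9, 2077, 1831 and 1866 in DEX, and 1050.1, 915 and 902 in VEH. The DEX libraries stood apart above the rest. DEX raised ZEB1 by 1.01 (SE 0.16, limma adjusted p = 0.00262) on the log2 scale, and KJ-PYR-9 + DEX lowered it against DEX with -1.27 (SE 0.16, limma adjusted p = 0.000156). KJ-PYR-9 alone gave 0.30 (SE 0.16, limma adjusted p = 0.142). ZEB1 has a GC content of 38.5%, below all but 9.93% of genes, and a long transcript of 6267 bases. After removal of trends with these properties the KJ-PYR-9 change was 0.90 (adjusted p = 0.00946), the DEX change 0.53 (adjusted p = 0.112) and the change of KJ-PYR-9 + DEX against DEX -0.17 (adjusted p = 0.532), so the calls depended on that step. With the replicate number also as a block, the DEX change passed (adjusted p = 0.0298). Across all alternatives these adjusted p values ranged over 0.00207 to 0.659, 3.45e-08 to 0.112 and 5.74e-13 to 0.532. The antisense transcript ZEB1-AS1, which shares 366 bases (4.23%) of the ZEB1 exons in GENCODE v29, averaged 91.6 ± 25.0 in KJ-PYR-9 + DEX, 84.9 ± 4.90 in KJ-PYR-9, 102 ± 12.8 in DEX and 89.0 ± 22.7 in VEH and passed no test.

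ZEB2 (chromosome 2, 144384081 to 144520119, minus strand), the relative of ZEB1, read 1801, 1791 and 1857 in KJ-PYR-9 + DEX, 808, 807 and 967 in KJ-PYR-9, 3453, 2699.7 and 2544 in DEX, and 699.7, 577 and 661 in VEH. No 2 groups overlapped, in the order DEX, KJ-PYR-9 + DEX, KJ-PYR-9 and VEH from high to low. DEX raised it by 2.16 (SE 0.15, limma adjusted p = 8.7e-06) on the log2 scale, above 99.2% of genes, and the call held in all 25 alternatives. KJ-PYR-9 gave 0.41 (SE 0.15, limma adjusted p = 0.0399), a call lost without any single library of VEH or KJ-PYR-9 (adjusted p of 0.0592, 0.138 and 0.0667 without VEH 1, 2 and 3, and 0.0625, 0.0626 and 0.151 without KJ-PYR-9 1, 2 and 3) or without DEX 2 (0.0522), in a range of 0.000857 to 0.151. With the trends of GC content and length taken out, the KJ-PYR-9 change of ZEB2 was 0.97 (adjusted p = 0.00388). KJ-PYR-9 + DEX lowered it against DEX, with -0.66 (SE 0.15, limma adjusted p = 0.00221), but with the trends of GC content and length taken out this was 0.33 (adjusted p = 0.159), in the other direction, and with the replicate block as well it was called higher (adjusted p = 0.0463). ZEB2 has a long transcript of 9583 bases, and its GC content of 39.1% is above that of 12.2% of genes.

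ZEB2-AS1 (chromosome 2, 144519614 to 144520899, plus strand) is a non-coding RNA that starts inside the 5′ end of ZEB2 and is transcribed from the other strand. It read 10.0, 2.30 and 3.93 in KJ-PYR-9 + DEX, 1.25, 1.19 and 3.24 in KJ-PYR-9, 113, 72.0 and 82.5 in DEX, and 3.03, 1.14 and 3.13 in VEH. The 3 DEX libraries stood far above the other 9. ZEB2-AS1 averaged 5.42 in KJ-PYR-9 + DEX, 1.90 in KJ-PYR-9 and 2.43 in VEH, against 89.1 in DEX. It therefore reached the mean of at least 10 needed for testing only through DEX. The tests below involve the group that admitted the gene, so they are given as descriptions. DEX against VEH gave 4.75 (SE 0.43, limma adjusted p = 6.17e-05), and KJ-PYR-9 + DEX against DEX gave -3.97 (SE 0.43, limma adjusted p = 8.34e-05), while ZEB2 itself averaged 1817 ± 35.5 in KJ-PYR-9 + DEX against 2899 ± 486 in DEX. With the trends of GC content and length taken out these changes of ZEB2-AS1 were 4.57 (adjusted p = 0.000164) and -3.61 (adjusted p = 0.000436). In GENCODE v29, whose transcripts reach beyond these RefSeq coordinates, exons of ZEB2-AS1 share 1299 bases (5.18%) with those of ZEB2. Strandedness was not given, so reads in the shared bases cannot be told apart.

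TWIST1 (chromosome 7, 19113047 to 19117636, minus strand), a factor of the mesoderm and neural crest, read 4069.8, 4487 and 5917 in KJ-PYR-9 + DEX, 2244, 2687 and 2542 in KJ-PYR-9, 1879, 1961 and 1531 in DEX, and 1186, 1108 and 1128 in VEH. No groups overlapped, and the order from high to low was KJ-PYR-9 + DEX, KJ-PYR-9, DEX and VEH. The log2 fold change was 1.12 (SE 0.16, limma adjusted p = 0.00113) for KJ-PYR-9 and 1.42 (SE 0.16, limma adjusted p = 9.78e-05) for KJ-PYR-9 + DEX against DEX, and these calls held in all 25 alternatives each, at 0.65 (adjusted p = 0.0171) and 0.80 (adjusted p = 0.00451) with the trends of GC content and length taken out. DEX alone gave 0.64 (SE 0.16, limma adjusted p = 0.0223), a call lost without VEH 1 (0.0504), VEH 2 (0.0693), VEH 3 (0.0694), DEX 1 (0.0788) or DEX 2 (0.0764), in a range of 0.00109 to 0.0788. The KJ-PYR-9 effect with DEX exceeded that without it by 0.30 (SE 0.23, limma adjusted p = 0.399), which did not pass, with a 95% interval of -0.20 to 0.79.

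TWIST2 (chromosome 2, 238848085 to 238910534, plus strand), the close relative of TWIST1, read 652, 660.1 and 1144 in KJ-PYR-9 + DEX, 726, 854 and 969 in KJ-PYR-9, 342, 429 and 437 in DEX, and 352, 364 and 403 in VEH. Both groups with KJ-PYR-9 lay above both groups without it. It rose by 1.18 (SE 0.21, limma adjusted p = 0.00289) with KJ-PYR-9 on the log2 scale, a call that held in all 25 alternatives, and by 0.98 (SE 0.21, limma adjusted p = 0.00223) with KJ-PYR-9 + DEX against DEX. That last rise was 0.38 (adjusted p = 0.0749) with the trends of GC content and length taken out, and it passed when the replicate block was added as well (adjusted p = 0.0444). Over the alternatives its adjusted p had a range of 8.63e-06 to 0.0749. DEX alone gave 0.10 (SE 0.21, limma adjusted p = 0.737), with a 95% interval of -0.37 to 0.58.

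CDH2 (chromosome 18, 27932879 to 28177130, minus strand) read 2335, 2409 and 2246 in KJ-PYR-9 + DEX, 2383, 2162 and 2424 in KJ-PYR-9, 3139, 2722 and 2421 in DEX, and 2280.0, 2309.7 and 2321 in VEH. The groups overlapped except that DEX lay above VEH and KJ-PYR-9 + DEX. KJ-PYR-9 gave 0.01 (SE 0.12, limma adjusted p = 0.949) with a 95% interval of -0.26 to 0.28, DEX gave 0.25 (SE 0.12, limma adjusted p = 0.148) with -0.01 to 0.52, and KJ-PYR-9 + DEX against DEX gave -0.24 (SE 0.12, limma adjusted p = 0.102) with -0.50 to 0.03. The sign of the KJ-PYR-9 value depended on scaling, at -0.07 with TMM rescaling and -0.33 (adjusted p = 0.0487, range 0.0487 to 0.988) with quantile scaling, where it passed. Without DEX 3 the fall with KJ-PYR-9 + DEX against DEX passed, at -0.33 (adjusted p = 0.0363), as it did under quantile scaling at -0.37 (adjusted p = 0.0191, range 0.0191 to 0.448).

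VIM (chromosome 10, 17228241 to 17237593, plus strand) read 10009, 11136 and 10115 in KJ-PYR-9 + DEX, 14181, 14459.9 and 13108 in KJ-PYR-9, 15518, 15022 and 12756 in DEX, and 9614, 11229 and 10805 in VEH. Each single treatment lay above VEH, and KJ-PYR-9 + DEX overlapped VEH. KJ-PYR-9 gave 0.40 (SE 0.12, limma adjusted p = 0.0235) and DEX 0.45 (SE 0.12, limma adjusted p = 0.0315). Under quantile scaling the KJ-PYR-9 value reversed to -0.24 (adjusted p = 0.182), and the call was lost without VEH 1 (0.0912), KJ-PYR-9 1 (0.0661) or KJ-PYR-9 2 (0.0731), in a range of 0.00521 to 0.182. With the trends taken out, the DEX value was 0.32 (adjusted p = 0.0587), and it passed with the replicate block added (adjusted p = 0.0368). The DEX call was lost without VEH 1 (0.0943), VEH 2 (0.06), VEH 3 (0.0792), DEX 1 (0.11), DEX 2 (0.0942), KJ-PYR-9 1 (0.0512) or KJ-PYR-9 2 (0.05), in a range of 0.00121 to 0.203. KJ-PYR-9 + DEX against DEX gave -0.47 (SE 0.12, limma adjusted p = 0.00608), and -0.23 (adjusted p = 0.081) with the trends of GC content and length taken out. VIM-AS1 shares 641 bases (12.4%) of the VIM exons in GENCODE v29 and averaged 10.4 ± 6.40 in DEX and 10.1 ± 2.22 in VEH, far below VIM.

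**Figure D3:**
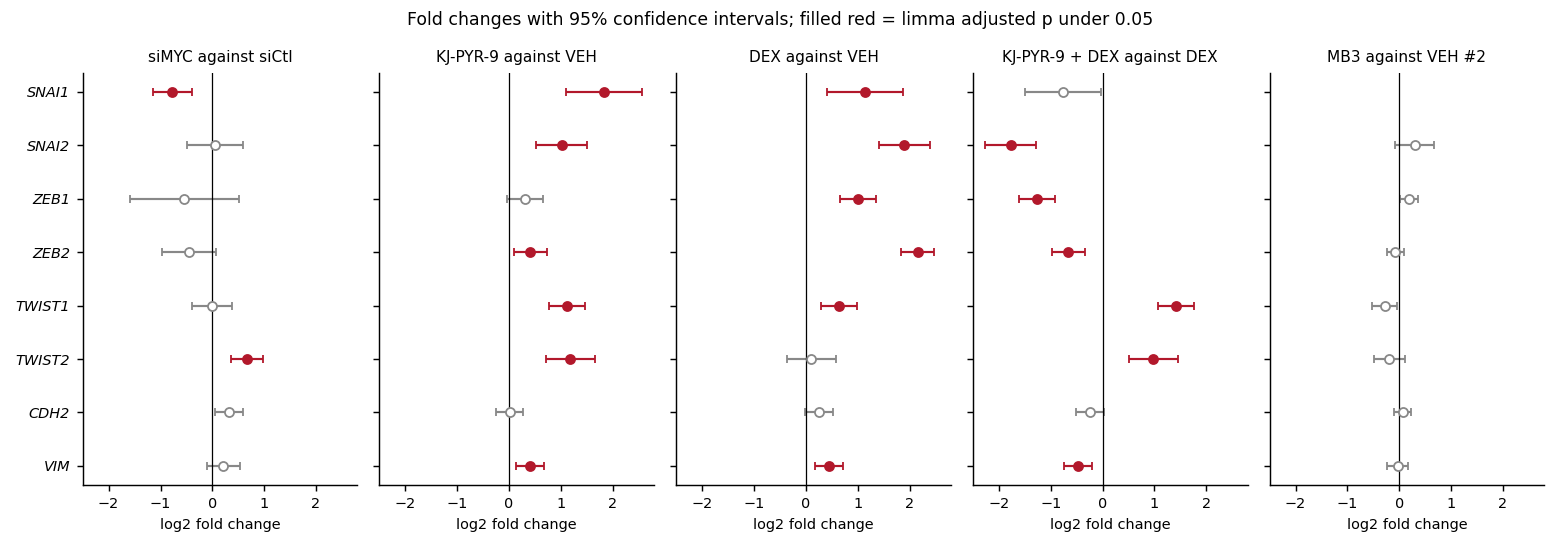
Log2 fold changes of the 8 genes in 5 comparisons, with 95% confidence intervals from limma on 3 libraries a group; filled red points have an adjusted p under 0.05. SNAI2 and ZEB1 lie right of 0 for DEX and left of 0 for KJ-PYR-9 + DEX against DEX, while TWIST1 and TWIST2 lie right of 0 in the KJ-PYR-9 and KJ-PYR-9 + DEX panels; SNAI1 has no value for MB3.

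The interaction compares the effect of KJ-PYR-9 with DEX and its effect without DEX. It was lower with DEX for 5 of the 8 genes and higher for none (9.62% of all genes lower and 7.15% higher, 16.8% in all). For SNAI2 the difference was -2.78 (SE 0.32, limma adjusted p = 0.000208) on the log2 scale, since KJ-PYR-9 raised it without DEX and lowered it with DEX. For SNAI1 the difference was -2.59 (SE 0.47, limma adjusted p = 0.00406), for ZEB1 -1.57 (SE 0.22, limma adjusted p = 0.000975), for ZEB2 -1.07 (SE 0.21, limma adjusted p = 0.00533) and for VIM -0.87 (SE 0.17, limma adjusted p = 0.00695). TWIST2 (-0.20, SE 0.30, limma adjusted p = 0.693, 95% interval -0.87 to 0.47) and CDH2 (-0.25, SE 0.17, limma adjusted p = 0.354, -0.62 to 0.13) did not pass, nor did TWIST1. The median over the 8 genes was -0.97, and -0.11 over all genes, a value that quantile scaling moved to 0.035. Of the calls over all genes 42.6% were higher, against 53.3% with TMM rescaling, 58.5% with quantile scaling and 54.0% after removal of the trends. With the trends of GC content and length taken out SNAI1 (-2.76, adjusted p = 0.00394), SNAI2 (-2.29, adjusted p = 0.00108), ZEB1 (-1.07, adjusted p = 0.0216) and VIM (-0.63, adjusted p = 0.0084) still passed and ZEB2 (-0.64, adjusted p = 0.0911) did not, although it passed with the replicate block added (adjusted p = 0.0206). VIM gave -0.47 (adjusted p = 0.129, range 8.11e-06 to 0.129) under quantile scaling. Without DEX 1 and KJ-PYR-9 + DEX 3 together, the libraries with the most unnamed reads, all 5 were still called, at -2.64 for SNAI2, -2.73 for SNAI1, -1.52 for ZEB1, -0.96 for ZEB2 and -0.79 for VIM.

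With the replicate number as a block, DEX called 43.5% of all genes and the interaction 32.3%, against 17.5% and 16.8% without it, and with no other change to the fit the block changed the call of no member in the inhibitor experiment. With the trends of GC content and length taken out, 23.1% of genes were called for KJ-PYR-9 with 7 of the 8 members higher, 9.53% for DEX with 4 higher, 32.1% for KJ-PYR-9 + DEX against DEX with 1 higher and 2 lower, and 17.2% for the interaction with 4 lower. SNAI1, TWIST1 and TWIST2 have short transcripts of 1404 to 1686 bases and a GC content of 57.0% to 58.2%, above that of at least 76.3% of genes. ZEB1, ZEB2 and SNAI2 have a GC content of 38.5% to 41.4%, above that of at most 22.1% of genes.

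**Figure D4:**
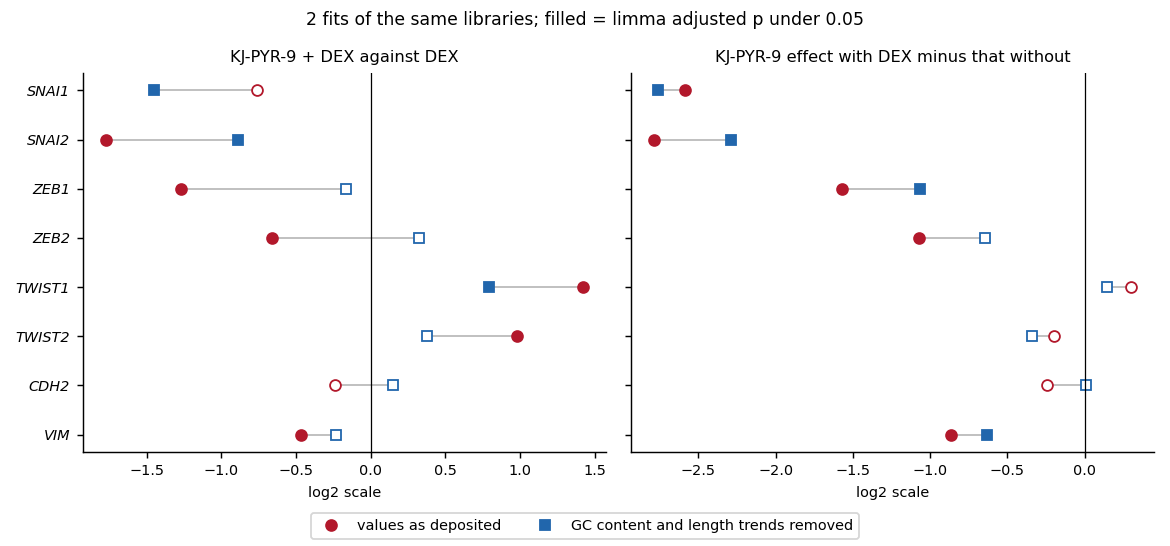
Log2 fold change of KJ-PYR-9 + DEX against DEX (left) and the interaction (right) for the 8 genes, from the deposited values (circles) and after removal of trends with GC content and transcript length (squares), 3 libraries a group; filled symbols passed. In the left panel ZEB1 moves to near 0 and ZEB2 crosses 0, while in the right panel SNAI1, SNAI2, ZEB1 and VIM stay filled and left of 0.

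In siMYC 2 of the 8 genes were called, in opposite directions, a count near the 16.1% of all genes called. MYC itself missed the threshold (log2 fold change of -0.38, limma adjusted p = 0.0587). SNAI1 fell to 47.5, 37.6 and 47.3 in siMYC, against 85.0, 77.4 and 66.1 in siCtl, with no overlap and a log2 fold change of -0.77 (SE 0.16, limma adjusted p = 0.0254). TWIST2 rose to 711, 873 and 717 in siMYC, against 470.3, 479 and 498 in siCtl, also with no overlap, by 0.66 (SE 0.13, limma adjusted p = 0.0237). Of all 14788 genes tested, 11.4% were higher and 4.78% lower, 16.1% in all, so 70.4% of the calls were higher, a share of 59.3% with TMM rescaling, 55.7% with quantile scaling and 46.5% with the trends of GC content and length taken out. In the members' counts, 1 was higher and 1 lower, and the median over the 8 genes was 0.03 beside 0.05 over all genes. Both calls were lost without siCtl 1 (adjusted p of 0.0897 for SNAI1 and 0.0883 for TWIST2), siCtl 2 (0.0891 and 0.0882), siCtl 3 (0.0589 and 0.0765) or siMYC 3 (0.0672 and 0.0624), though the log2 fold change of SNAI1 stayed below 0 and that of TWIST2 above 0 in all 15 alternatives (ranges of adjusted p 0.012 to 0.0897 and 0.00914 to 0.143).

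ZEB1 and ZEB2 differed within siMYC. ZEB1 read 2894, 791 and 1195 in siMYC and 2137, 2098 and 1872 in siCtl, so siMYC 1 stood above all siCtl libraries and siMYC 2 and 3 below them, with -0.54 (SE 0.44, limma adjusted p = 0.409). ZEB2 read 1233, 688 and 933 in siMYC and 1280.5, 1347 and 1173 in siCtl, with -0.45 (SE 0.22, limma adjusted p = 0.184). Without siMYC 1 both were called lower, ZEB1 at -1.06 (adjusted p = 0.0203, range 0.0203 to 0.827) and ZEB2 at -0.66 (adjusted p = 0.0409, range 0.0409 to 0.513). SNAI2 read 926, 533 and 626 in siMYC and 647, 742 and 571 in siCtl (0.06, SE 0.23, limma adjusted p = 0.875), again highest in siMYC 1. TWIST1 read 2401, 2858 and 1950.4 in siMYC and 2268, 2398 and 2461 in siCtl, with siCtl inside the range of siMYC and a 95% interval of -0.39 to 0.39. CDH2 read 5693, 6619 and 6030.2 in siMYC and 4891, 4916 and 4859.7 in siCtl without overlap, with 0.32 (SE 0.11, limma adjusted p = 0.098). VIM read 24624, 29321 and 23425 in siMYC and 21251, 21752 and 23489.6 in siCtl (0.21, SE 0.13, limma adjusted p = 0.284), and siMYC 3 lay below siCtl 3.

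In the MB-3 experiment limma called none of the 7 members analysed, with 6 of 10048 genes (0.0597%) called in all, 14 (0.139%) with the replicate block and 11 with trended and robust variance. At an unadjusted p under 0.05, 2 members and 1377 genes passed. TWIST1 read 1162, 1034 and 1185 in MB3 and 1554, 1305 and 1267 in VEH #2, with all MB3 libraries below and -0.28 (SE 0.10, limma adjusted p = 0.322). ZEB1 read 1399, 1355 and 1240.4 in MB3 and 1138, 1196 and 1176 in VEH #2, with all MB3 libraries above and 0.18 (SE 0.08, limma adjusted p = 0.344). SNAI2 read 1413, 1644 and 1839 in MB3 and 1041, 1379 and 1606 in VEH #2, and these overlapped (0.30, SE 0.17, limma adjusted p = 0.444). The other 4 had 95% intervals of -0.24 to 0.08 for ZEB2, -0.48 to 0.10 for TWIST2, -0.10 to 0.23 for CDH2 and -0.23 to 0.17 for VIM on the log2 scale, around values of -0.08, -0.19, 0.07 and -0.03. The lowest gene mean in that table was 83.9, so genes of low level were not tested there.

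**Figure D5:**
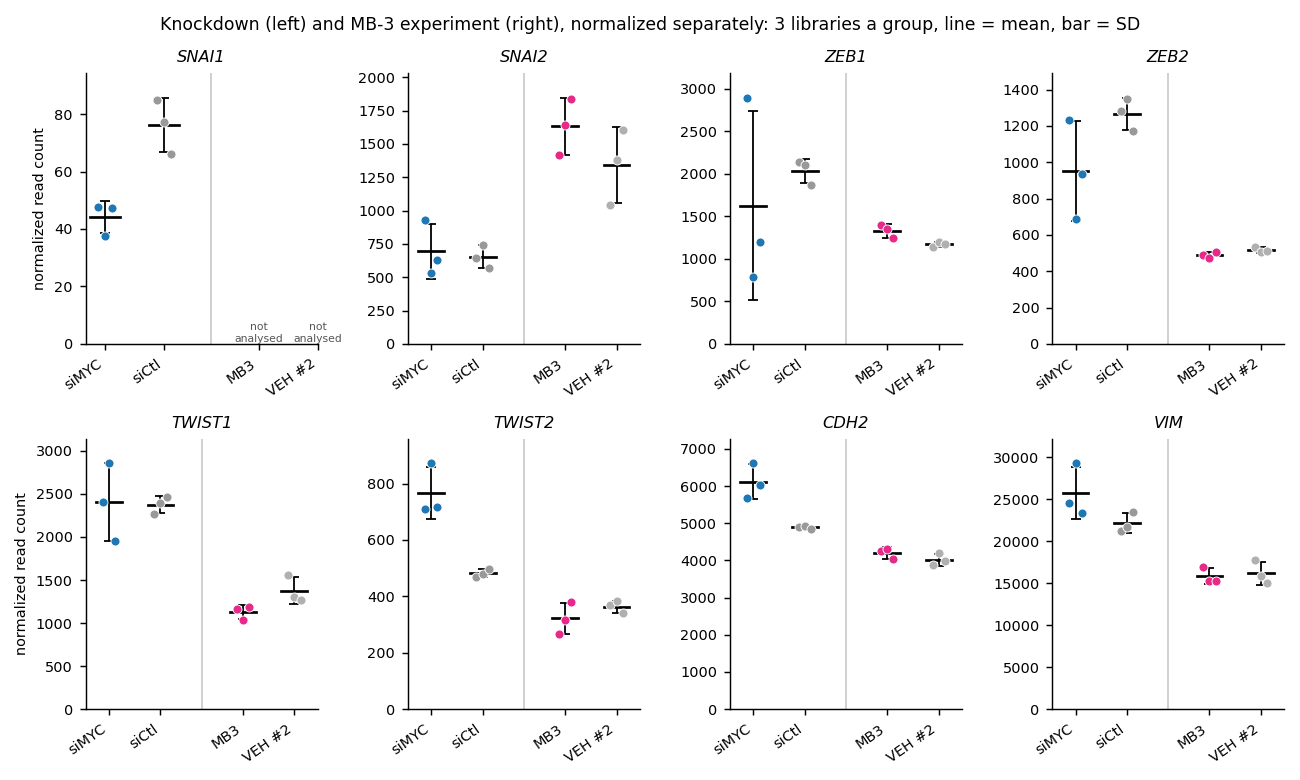
Normalized read counts of the 8 genes in the knockdown (siMYC and siCtl) and the MB-3 experiment (MB3 and VEH #2), 1 point per library with the mean (line) and SD (bar) of 3 libraries; the experiments were normalized separately. SNAI1 is lower and TWIST2 higher in siMYC, ZEB1 is split in siMYC with library 1 high, and the MB3 and VEH #2 values lie close together.

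Genes around the 8 were described from 7 lists, beginning with other EMT transcription factors (22 genes, 14 or 15 tested). Values given with these genes are log2 fold changes, or their difference for the interaction, with limma adjusted p values. In KJ-PYR-9 6 of 14 rose and none fell, and in DEX 8 rose and 1 fell, with medians of 0.40 and 0.56. Over all genes 42.9% were called for KJ-PYR-9 and 17.5% for DEX, so the KJ-PYR-9 count was at the background. In KJ-PYR-9 + DEX against DEX 2 rose and 7 fell with a median of -0.57, and the interaction was lower for 5 and higher for none. Of all genes, 68.7% and 16.8% were called there, and the first count was close to that background. With the trends removed, 6 rose and none fell for each of KJ-PYR-9 and DEX, 3 rose and 5 fell with a median of -0.03 for KJ-PYR-9 + DEX against DEX. The interaction was then lower for 6. The shares of all genes called with the trends removed were 23.1%, 9.53%, 32.1% and 17.2%, in the same order. SOX9, a factor of chondrocytes and progenitor cells, averaged 987 ± 41.8 in KJ-PYR-9 + DEX, 2361 ± 60.8 in KJ-PYR-9, 3724 ± 902 in DEX and 806 ± 252 in VEH. Its log2 fold change was 1.60 (adjusted p = 0.00123) for KJ-PYR-9, 2.23 (adjusted p = 0.000189) for DEX and -1.88 (adjusted p = 0.000148) for KJ-PYR-9 + DEX against DEX. FOXC1, a forkhead factor of basal-like breast cancer, averaged 688 ± 20.6 in KJ-PYR-9 + DEX, 2738 ± 287 in KJ-PYR-9, 2158 ± 146 in DEX and 1025 ± 168 in VEH, with 1.42 (adjusted p = 0.000167) for KJ-PYR-9, 1.08 (adjusted p = 0.000755) for DEX and -1.65 (adjusted p = 2.83e-05) for KJ-PYR-9 + DEX against DEX. The same 3 values with the trends of GC content and length taken out were 1.40 (adjusted p = 0.00381), 2.33 (adjusted p = 0.00021) and -2.14 (adjusted p = 0.00026) for SOX9 and 0.96 (adjusted p = 0.00462), 1.40 (adjusted p = 0.000695) and -2.35 (adjusted p = 3.16e-05) for FOXC1. PRRX2 rose with KJ-PYR-9, by 1.01 (adjusted p = 0.00932), a call lost with the trends removed (0.15, adjusted p = 0.602), and HMGA2 with DEX, by 1.15 (adjusted p = 0.00019). TCF3, an E protein that pairs with TWIST factors, rose with KJ-PYR-9 + DEX against DEX by 1.19 (adjusted p = 9.14e-05), with a value of 0.19 (adjusted p = 0.227) after removal of the trends. The interaction was -3.48 (adjusted p = 5.8e-05) for SOX9, -3.07 (adjusted p = 4.42e-06) for FOXC1 and -1.67 (adjusted p = 0.00178) for SOX4.

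In siMYC 4 of 15 other EMT factors rose and none fell, beside 11.4% of all genes higher and 4.78% lower. Among those that rose were FOSL1 (1.10, adjusted p = 0.0166), TBX3 (0.72, adjusted p = 0.0149) and FOXC1 (0.67, adjusted p = 0.0228). Each of these 3 calls was lost without siCtl 1, siCtl 2, siCtl 3 or siMYC 3, with adjusted p values up to 0.0623, 0.0673 and 0.0887. After removal of the trends 3 rose and 1 fell, and FOXC1 did not pass, at 0.36 (adjusted p = 0.0631). Of the 14163 genes in that fit, 1283 were called higher and 1476 lower. In MB3 none of 14 was called.

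Corepressors and regulators of the SNAIL, ZEB and TWIST proteins (28 genes, 25 to 27 tested) moved in both directions. KJ-PYR-9 raised 4 and lowered 6, DEX raised 3 and lowered 2, and KJ-PYR-9 + DEX against DEX raised 6 and lowered 12 of 27, with medians of 0.09, 0.02 and -0.36. Of all genes 42.9%, 17.5% and 68.7% were called, so these counts were close to the background. With the trends removed the counts were 3 higher and 1 lower, 1 and 1, and 7 and 7, with a median of 0.01 in the last. The shares of all genes called were then 23.1%, 9.53% and 32.1%. The interaction was higher for 1 and lower for 3 (median -0.18), beside 16.8% of all genes called. LOXL2, a lysyl oxidase that stabilises SNAIL, averaged 37633 ± 4169 in KJ-PYR-9 and 19781 ± 2544 in VEH (0.93, adjusted p = 0.00442), and 52186 ± 5398 in siMYC and 30711 ± 5578 in siCtl (0.78, adjusted p = 0.0325), a call with adjusted p values up to 0.102 when single libraries other than siMYC 1 were left out. ID1, an inhibitor of helix-loop-helix factors, rose with KJ-PYR-9 (0.90, adjusted p = 0.00396) and with DEX (0.58, adjusted p = 0.0481), the second a call lost without any single VEH, DEX or KJ-PYR-9 library or KJ-PYR-9 + DEX 1 (adjusted p up to 0.147). ID4 averaged 95.7 ± 25.0 in KJ-PYR-9 + DEX and 411 ± 60.1 in DEX (-2.11, adjusted p = 9.16e-05). USP37, a deubiquitinase of SNAIL, fell in the same comparison by 1.90 on the log2 scale (adjusted p = 0.000316). COPS2 gave -2.09 (adjusted p = 0.000674) there and -1.16 (adjusted p = 0.0271) for KJ-PYR-9, the KJ-PYR-9 call being lost without VEH 1, VEH 2, KJ-PYR-9 1 or KJ-PYR-9 3 (up to 0.0968), and these values became -0.50 (adjusted p = 0.0715) and -0.30 (adjusted p = 0.284) after removal of the trends. AJUBA (-0.64, adjusted p = 0.0465) and LIMD1 (-0.61, adjusted p = 0.0213), LIM proteins that bind SNAIL, were lower in DEX, calls with adjusted p values up to 0.168 and 0.0816 when single libraries were left out. The interaction was -2.53 (adjusted p = 0.000535) for ID4, -1.43 (adjusted p = 0.0345) for USP37 and 1.36 (adjusted p = 0.0283) for FBXL14, a ubiquitin ligase of SNAIL, with adjusted p values up to 0.00243, 0.0864 and 0.0689 without single libraries. Calls lost with the trends removed were LOXL2 in siMYC, at 0.44 (adjusted p = 0.069), ID1 in KJ-PYR-9, at 0.37 (adjusted p = 0.132), and AJUBA in DEX, at -0.45 (adjusted p = 0.239). In siMYC 2 of 27 rose, LOXL2 and ID2 (0.87, adjusted p = 0.0109), beside 11.4% of all genes higher, and in MB3 none of 25 was called.

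Of 20 inducers of EMT, mostly TGF-beta ligands, receptors and SMADs, 7 rose and none fell in siMYC, with a median of 0.42. In that comparison 11.4% of all genes were higher and 4.78% lower. TGFBR2, the type II TGF-beta receptor, averaged 2863 ± 515 in siMYC and 1182 ± 155 in siCtl (1.27, adjusted p = 0.0119). PDGFRA (1.14, adjusted p = 0.0197, lost without siCtl 1 or 3, at up to 0.0727) and JAG1 (0.91, adjusted p = 0.02, lost without any siCtl library or siMYC 3, at up to 0.0722) also rose. KJ-PYR-9 raised 4 and lowered 2, DEX raised 3 and lowered 2, and KJ-PYR-9 + DEX against DEX raised 9 and lowered 6 (medians of 0.08, 0.08 and 0.31). Of all genes 42.9%, 17.5% and 68.7% were called in these comparisons. In siMYC 5 rose and none fell with the trends removed, and the inhibitor counts were 1 higher and 2 lower, 2 and 2, and 6 and 1. With the trends removed siMYC called 1283 of all 14163 genes higher and 1476 lower. The shares of all genes called in the inhibitor comparisons were then 23.1%, 9.53% and 32.1%. TGFB2, a TGF-beta ligand, averaged 205 ± 15.5 in KJ-PYR-9 + DEX, 462 ± 18.6 in KJ-PYR-9, 756 ± 88.6 in DEX and 288 ± 53.0 in VEH. It rose with KJ-PYR-9 (0.69, adjusted p = 0.00597) and DEX (1.40, adjusted p = 0.000244) and fell with KJ-PYR-9 + DEX against DEX (-1.88, adjusted p = 2.3e-05), and each passed after removal of the trends. SMAD7, the inhibitory SMAD, fell with DEX (-1.24, adjusted p = 0.00181), and TGFBR3 rose (0.80, adjusted p = 0.0112), a value of 0.56 (adjusted p = 0.0556) with the trends removed. TGFBR1 fell with KJ-PYR-9 (-0.78, adjusted p = 0.00644), and -0.21 (adjusted p = 0.136) was left after removal of the trends. NOTCH1 rose with KJ-PYR-9 (1.30, adjusted p = 0.0176, lost without VEH 1 or KJ-PYR-9 3 at up to 0.0741) and with KJ-PYR-9 + DEX against DEX (1.83, adjusted p = 0.00138), both lost with the trends removed, at 0.55 (adjusted p = 0.115) and 0.67 (adjusted p = 0.0517), and SKIL fell there (-2.06, adjusted p = 0.00108), with -0.46 (adjusted p = 0.202) after removal of the trends. The interaction was called for 4 of 20, 3 higher and 1 lower, at -2.57 (adjusted p = 2.63e-05) for TGFB2, 1.23 (adjusted p = 0.00234) for SKI and 0.94 (adjusted p = 0.018) for TGFBR2, the last lost without KJ-PYR-9 1 (adjusted p = 0.0522). In MB3 none of 18 was called. Over all genes 16.8% were called for the interaction.

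Of the epithelial genes that EMT factors are known to repress, 11 of 27 rose with KJ-PYR-9 and none fell (median 0.24), with 3 rising and 1 falling with the trends of GC content and length taken out. KJ-PYR-9 called 42.9% of all genes, 25.4% higher and 17.5% lower, and 23.1% with the trends removed. KRT19 averaged 87.5 ± 6.06 in KJ-PYR-9 and 25.1 ± 9.88 in VEH (1.84, adjusted p = 0.00239), LLGL2 rose by 1.51 (adjusted p = 0.00195) and CLDN3 by 1.65 (adjusted p = 0.0122), the last lost without VEH 1 or KJ-PYR-9 3 (up to 0.0547) and with the trends removed, at 0.78 (adjusted p = 0.189). In DEX 3 rose and 2 fell (median 0.25), beside 17.5% of all genes called. With the trends removed 2 rose and none fell, beside 9.53% of all genes called. CLDN1, a tight junction claudin, averaged 432 ± 131 in KJ-PYR-9 + DEX, 1654 ± 238 in DEX and 451 ± 224 in VEH. Its log2 fold change was 1.97 (adjusted p = 0.00665) for DEX against VEH and -1.97 (adjusted p = 0.000893) for KJ-PYR-9 + DEX against DEX, and neither passed after removal of the trends, at 1.59 (adjusted p = 0.0503) and -1.12 (adjusted p = 0.0777). CDS1 rose with DEX (1.29, adjusted p = 0.0264, lost without VEH 2, VEH 3, DEX 1 or DEX 2 at up to 0.101) and LSR fell (-0.91, adjusted p = 0.0137, and -0.49 (adjusted p = 0.103) with the trends removed). KJ-PYR-9 + DEX against DEX raised 11 and lowered 7 (median 0.52), close to the 68.7% of all genes called. It gave 1 higher and 2 lower after removal of the trends, beside 32.1% of all genes called. KRT8 (1.35, adjusted p = 0.00577) and LSR (1.31, adjusted p = 0.000324) rose there, and became 0.70 (adjusted p = 0.0676) and 0.29 (adjusted p = 0.221). The interaction was called for CLDN1 (-2.92, adjusted p = 0.0036) and LSR (1.42, adjusted p = 0.00648) of 27, and for 3 higher and 3 lower with the trends removed. Over all genes 16.8% were called, and 17.2% with the trends removed.

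In siMYC 8 of 32 epithelial genes rose and none fell, with a median of 0.39 beside 0.05 over all genes. Of all genes 11.4% were higher and 4.78% lower. CDH1, the target gene of the SNAIL and ZEB repressors, rose by 2.04 (adjusted p = 0.014). KRT8 (1.67, adjusted p = 0.0451) and KRT18 (1.56, adjusted p = 0.0204), keratins of simple epithelia, rose as well, calls lost without siCtl 1, 2 or 3, at up to 0.127 and 0.0747. Once the trends were removed 8 rose and 2 fell, and KRT8 did not pass, at 1.35 (adjusted p = 0.0636). Of the 14163 genes in that fit, 1283 were called higher and 1476 lower. In MB3 none of 11 was called.

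Epithelial transcription and splicing factors (13 genes, 2 to 9 tested) were called higher in siMYC for 3 of 9 and lower for none. EHF averaged 61.5 ± 13.1 in siMYC and 12.1 ± 1.94 in siCtl (2.24, adjusted p = 0.00551), KLF5 1714 ± 276 in siMYC and 780.1 ± 72.5 in siCtl (1.13, adjusted p = 0.0118), and TP63 86.6 ± 34.2 in siMYC and 33.9 ± 3.53 in siCtl (1.26, adjusted p = 0.0276, lost without siCtl 1, 2 or 3 at up to 0.0948). KJ-PYR-9 raised 2 of 7 and lowered none, ELF3 (2.26, adjusted p = 0.0498, lost without 8 of the 12 libraries in turn, at up to 0.181) and KLF5 (0.52, adjusted p = 0.0205, lost without VEH 1, VEH 2, KJ-PYR-9 2 or KJ-PYR-9 3 at up to 0.0768). DEX raised KLF5 (1.30, adjusted p = 0.000482) and GRHL3 (2.00, adjusted p = 0.00347) and lowered none. GRHL3 averaged 17.8 ± 2.32 in DEX and 4.09 ± 2.32 in VEH. KJ-PYR-9 + DEX against DEX raised ESRP2 (1.98, adjusted p = 0.00169) and GATA3 (0.66, adjusted p = 0.0192, lost without DEX 1 or KJ-PYR-9 + DEX 1 at up to 0.0791) and lowered ELF3 (-2.53, adjusted p = 0.0201, lost without DEX 3, KJ-PYR-9 + DEX 1 or KJ-PYR-9 + DEX 2 at up to 0.0724). ESRP2 averaged 28.6 ± 17.4 in KJ-PYR-9 + DEX and 5.96 ± 2.77 in DEX. The means of GRHL3 in VEH and of ESRP2 in DEX lay below 10, the mean over libraries needed for testing. With the trends removed ELF3 in KJ-PYR-9 (1.82, adjusted p = 0.108), ESRP2 (1.07, adjusted p = 0.0693) and GATA3 (0.19, adjusted p = 0.547) did not pass. ELF3 alone had a called interaction, -4.79 (adjusted p = 0.0202). In MB3 none of 2 was called. Of all genes 16.1% were called for siMYC, 42.9% for KJ-PYR-9 and 17.5% for DEX. The shares were 68.7% for KJ-PYR-9 + DEX against DEX and 16.8% for the interaction.

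Other mesenchymal markers (44 genes, 41 to 43 tested) included 19 that rose and 2 that fell with KJ-PYR-9 (median 0.47), with 16 higher and none lower after removal of the trends. COL6A2 averaged 6831 ± 929.8 in KJ-PYR-9 and 2437 ± 276 in VEH (1.48, adjusted p = 0.00163), and COL6A1 rose by 1.09 (adjusted p = 0.00087), or 0.33 (adjusted p = 0.0522) with the trends removed. DEX raised 8 and lowered none (median 0.11), among them LOX (0.86, adjusted p = 0.0103), CDH6 (0.84, adjusted p = 0.00194) and POSTN (0.96, adjusted p = 0.042, lost without 9 of the 12 libraries in turn, at up to 0.159). With the trends removed DEX gave 2 higher and 1 lower, and LOX (0.42, adjusted p = 0.314), CDH6 (0.42, adjusted p = 0.164) and POSTN (0.47, adjusted p = 0.104) did not pass. KJ-PYR-9 + DEX against DEX raised 18 and lowered 11 (median 0.36), close to the 68.7% of all genes called. It gave 6 higher and 4 lower after removal of the trends. COL1A1 averaged 21573 ± 5259 in KJ-PYR-9 + DEX and 8117 ± 349.7 in DEX (1.38, adjusted p = 0.000359), COL6A2 rose by 1.25 (adjusted p = 0.000878) and POSTN gave -1.43 (adjusted p = 0.00139), and these became 0.32 (adjusted p = 0.341), 0.13 (adjusted p = 0.396) and -0.29 (adjusted p = 0.198) after removal of the trends. The interaction was lower for 8 and higher for none (median -0.24), including CDH6 (-1.37, adjusted p = 0.00051), LOX (-1.09, adjusted p = 0.0132) and POSTN (-1.31, adjusted p = 0.0496, up to 0.112 without single libraries). It was lower for 7 and higher for 2 with the trends removed, and LOX (-0.61, adjusted p = 0.258) and POSTN (-0.73, adjusted p = 0.0551) did not pass. In siMYC 9 rose and 1 fell of 41 (median 0.35), and 9 rose and 2 fell with the trends removed. Of all 14163 genes in the fit without trends, 1283 were called higher and 1476 lower. TAGLN averaged 4866 ± 1001 in siMYC and 1227 ± 487 in siCtl (2.06, adjusted p = 0.0161, 0.0617 without siMYC 3), and COL6A3 (2.10, adjusted p = 0.0324) and ITGA5 (1.30, adjusted p = 0.0175) rose, both lost without siCtl 1, 2 or 3 or siMYC 3 at up to 0.103 and 0.0641. In MB3 none of 42 was called. Beside these counts, 42.9% of all genes were called for KJ-PYR-9, 17.5% for DEX, 16.8% for the interaction and 16.1% for siMYC. After removal of the trends the shares were 23.1% for KJ-PYR-9, 9.53% for DEX and 17.2% for the interaction. For KJ-PYR-9 + DEX against DEX the share was then 32.1%.

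A list of 8 antisense RNAs and miRNA host genes held 4 at member loci (ZEB1-AS1, ZEB2-AS1, VIM-AS1 and CDH2-AS1) and 4 elsewhere in the genome, and 4 of the 8 were tested in the inhibitor experiment and in the knockdown, and 1 in the MB-3 experiment. Apart from ZEB2-AS1, MIR100HG, the host of miR-100 and let-7a-2, fell with KJ-PYR-9 (-1.01, adjusted p = 0.0042) and with KJ-PYR-9 + DEX against DEX (-2.05, adjusted p = 6.12e-05). In these comparisons 42.9% and 68.7% of all genes were called. With the trends removed these falls were smaller, at -0.43 (adjusted p = 0.0195) and -0.87 (adjusted p = 0.000413). MIR100HG read 74.2, 81.8 and 49.1 in KJ-PYR-9 + DEX, 163, 142 and 125 in KJ-PYR-9, 342, 273 and 236 in DEX, and 309.9, 266 and 289 in VEH, so both groups with KJ-PYR-9 lay below both without it. The interaction of MIR100HG was -1.04 (adjusted p = 0.0314), lost without VEH 2, VEH 3, DEX 1, DEX 2, KJ-PYR-9 1 or KJ-PYR-9 2 (up to 0.0815) and with the trends removed (-0.45, adjusted p = 0.0715). SNAI3-AS1, antisense to a further SNAIL family gene, rose with KJ-PYR-9 + DEX against DEX (1.03, adjusted p = 0.0168, lost without DEX 1 or KJ-PYR-9 + DEX 3 at up to 0.0737, and 0.55 (adjusted p = 0.194) with the trends removed). In siMYC none of the 4 was called, and in MB3 MIR100HG was not called. The lists were chosen with earlier results of these data known, and their counts and medians are descriptions.

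For each member the 3 genes with the most similar pattern over the 18 libraries of the knockdown and inhibitor experiments were found among 10850 genes, by the root mean square difference of centred log2 values. ADAMTS6 (0.24), BTG1 (0.26) and ZBTB21 (0.28) were nearest to SNAI2, whose own root mean square spread was 0.67 on the same scale. PRKG1 (0.20), JMY (0.20) and FBXO30 (0.20) were nearest to ZEB1 (spread 0.54), and PAG1 (0.34), B3GNT5 (0.34) and TSC22D2 (0.35) to ZEB2 (0.73). GLUL (0.29) and SLCO4A1 (0.29) were among the 3 nearest to TWIST1 (0.63), and CYB5R3 (0.13), FNDC10 (0.13) and COPE (0.14) were nearest to TWIST2 (0.52). SNAI1 had more distant neighbours, ANKRD10 (0.35), RNF122 (0.42) and LMCD1 (0.42), for a spread of 0.69. CDH2 (RSPRY1, GLT8D1 and TMED10, 0.08 each, spread 0.15) and VIM (ATG3, RHOA and PFDN1, 0.10 each, spread 0.21) varied little. None of the 8 members was among the 3 nearest genes of another. These points share libraries, so the values are descriptions.

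Spread between replicates differed among the members. The coefficient of variation within a group had a median over groups of 19.2% for SNAI2, 15.2% for SNAI1, 12.6% for TWIST2, 10.2% for TWIST1, 8.34% for ZEB2, 6.97% for ZEB1, 6.95% for VIM and 3.79% for CDH2. It was highest for ZEB1 in siMYC, at 68.6%, and for SNAI1 in VEH, at 59.3%, where VEH 1 read 63.2 and the other 2 libraries 27.9 and 21.9.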

How the data were processed

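RNA of 24 libraries was measured by sequencing after rRNA depletion, per the labels' protocols. Tools listed in the submitters' processing notes are featureCounts, DESeq2, SAMtools and bcl2fastq, with the builds GRCh38 and hg38. Aligner, annotation and strandedness are not given in the sources used here. As deposited, the values are a signal, namely gene read counts that the authors divided by a size factor per library, in 3 tables normalized separately. The recovered reads were whole to within 0.0001. The 6462 inhibitor features without a symbol were left out, holding 1.618% to 26.04% of reads per library, and repeats of a symbol were summed.

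Here log2(value + 1) of genes with a mean of at least 10 was tested with limma 3.58.1 in R 4.3.3 (fold changes are on that scale and understate low genes), with Benjamini-Hochberg adjustment over all genes and a threshold of 0.05. The 12 inhibitor libraries entered 1 fit. edgeR 4.0.16 and DESeq2 1.42.0 ran on the recovered reads of the inhibitor experiment as alternatives. The fits for siMYC, KJ-PYR-9 and MB3 were run on simulated data. The simulated libraries held no replicate pairing and no GC content or length trends, so they cannot test those settings. Same-numbered libraries deviated together in the inhibitor (18 pairs, r of 0.13 to 0.524) and MB-3 experiments (3 pairs, 0.208 to 0.389), every pair above 0.1, and did not in the knockdown, so the block is given for the first 2. Named genes are the 8 members and up to 3 called genes per list and comparison with the largest fold change. Some genes that these rules select are not reported here. The members and lists were chosen with earlier results of these data known. Tables used Python 3.11.15. Intervals cover the spread between these libraries, which may be technical.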

Additional observations from a re-analysis of the deposited data

Results flagged for a closer look

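For 5 of the 8 genes the effect of KJ-PYR-9 with DEX differed from its effect without DEX by the interaction test (limma). The difference on the log2 scale was -2.589 for SNAI1, -2.785 for SNAI2, -1.571 for ZEB1, -1.074 for ZEB2 and -0.8678 for VIM. The ZEB2 value missed the threshold with the trends of GC content and length taken out (adjusted p = 0.0911, and 0.0206 with the replicate block added), and the VIM value under quantile scaling (adjusted p = 0.129).

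Reads in features without a gene symbol, which entered no comparison, held a larger share in 7 treated libraries of the inhibitor experiment than in any VEH library, where the share was 1.618% to 1.861%. The share was 4.826%, 2.424% and 8.722% in KJ-PYR-9 + DEX 1, 2 and 3, 3.098% in KJ-PYR-9 1, 5.445% in KJ-PYR-9 3, 26.04% in DEX 1 and 2.071% in DEX 3. The interaction of the 5 genes passed without DEX 1 and KJ-PYR-9 + DEX 3 together.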

How the results depend on the processing

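Of 1017 fold changes of the members under alternatives, 922 kept their direction and side of the threshold, 61 lost a call, 13 gained one and 21 reversed; the causes were not tested. With the replicate block, the knockdown, whose numbers do not pair the libraries, called 470 genes and 0 members (SNAI1 adjusted p = 0.0806, TWIST2 0.0921), and 545 genes and 1 member with GC content and length trends also removed. The block gave 5925 genes for DEX, 4399 for the interaction and 14 for MB3, and by itself changed no member's call there; on top of removing the GC content and length trends it brought calls for ZEB1 and VIM in DEX (adjusted p of 0.0298 and 0.0368), TWIST2 and ZEB2 in KJ-PYR-9 + DEX against DEX (0.0444 and 0.0463) and ZEB2 in the interaction (0.0206). Removing the trends left 3017 genes for KJ-PYR-9, 1243 for DEX, 4194 genes and 3 members for KJ-PYR-9 + DEX against DEX (5586 genes with the block), and 11 for MB3 (3 with the block). Trended variance also gave 11 for MB3, and DESeq2 gave 3737 for DEX. Reversed fold changes after removal of the trends, with or without the block, were 0.33 for ZEB2 and 0.15 for CDH2 in KJ-PYR-9 + DEX against DEX, and 0.0088 for CDH2 in the interaction. For KJ-PYR-9, CDH2 was -0.071 with TMM, -0.33 with quantile scaling, -0.071 with edgeR and -0.046 with DESeq2, and VIM was -0.24 with quantile scaling. SNAI2 in siMYC was -0.011 with TMM, and VIM in MB3 was 0.030 with quantile scaling.

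Leaving out 1 library at a time gave 432 to 3983 genes and 0 to 4 members for siMYC, 3393 to 6838 and 4 to 6 for KJ-PYR-9, 865 to 3940 and 3 to 6 for DEX, 60.4% to 69.2% of genes and 6 to 7 members for KJ-PYR-9 + DEX against DEX, 1469 to 2731 and 5 to 5 for the interaction, and 1 to 3 and 0 to 0 for MB3. Fold changes that changed sign ranged over -0.17 to 0.23 for SNAI2 and -0.13 to 0.14 for TWIST1 in siMYC, -0.021 to 0.061 for CDH2 in KJ-PYR-9 and -0.082 to 0.036 for VIM in MB3. The fit without DEX 1 and KJ-PYR-9 + DEX 3 together was chosen after seeing the data. The planned edgeR and DESeq2 fits were not run for the knockdown and MB-3 tables, because of the check of units on their recovered reads. The 3 libraries a group and genes of low level limit the precision.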
